A study of Mus musculus with 6 samples.

Results

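A set of 10 genes of the early transcriptional response to cyclic AMP was followed in mouse interscapular brown adipose tissue after acute cold: the NR4A receptors Nr4a1, Nr4a2 and Nr4a3, the AP-1 subunits Fos, Fosb, Fosl2 and Junb, the ATF and CREM factors Atf3 and Crem, and the kinase Sik1. They were chosen by name, with earlier results of these data known, through the transcripts that GENCODE M21 assigns to them. They make up 10 of the 21730 genes with a read. Sik1 encodes a kinase and not a transcription factor, and is kept in the set by that rule. The 10 genes have 76 annotated transcripts, 44 of them with a read, among 59371 transcripts with a read in the series. All mice were male wild type C57BL/6N animals aged 20 weeks. The 3 cold mice (numbers 4, 11 and 15) spent 24 h alone in a cage at 4 °C, after which fat was collected. The 3 ctrl mice (numbers 2, 9 and 14) were kept at 22 to 24 °C; whether they were also housed singly is not given in the sources used here, so cold and single housing cannot be told apart. Polyadenylated RNA was sequenced with Oxford Nanopore direct cDNA reads, which follow cDNA molecules without a PCR step, and each mouse's library was read on 2 flow cells.

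In brown adipocytes, noradrenaline released in the cold acts on beta-adrenergic receptors, and the cyclic AMP that follows activates protein kinase A. Protein kinase A phosphorylates CREB, a factor that binds the cyclic AMP response element (CRE), and the promoters of immediate early genes respond before any new protein is made. Their mRNAs are typically short lived, and several of the products limit the response: CREM isoforms that lack an activation domain and ATF3 can repress CRE promoters, and SIK1 phosphorylates the CRTC coactivators that CREB needs.

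The mice yielded 1657985 to 2082203 reads matched to the annotation in the cold group and 1829442 to 2238056 in the ctrl group. On these unscaled totals, 3 reads in a mouse stood for 1.34 to 1.81 CPM, the reads of a gene scaled to a common library total. Mitochondrial reads made up 23.0% to 24.7% in cold mice and 25.3% to 27.9% in ctrl mice on the first flow cell, and 34.1% to 35.7% in cold mice and 36.6% to 39.3% in ctrl mice on the second, so the groups did not overlap on either. Leaving the mitochondrial genes out of the fit gave the same 3 calls. Brown adipocyte identity was present in each library: Ucp1, the uncoupling protein of brown fat, stood at 13875, 13665 and 13889 CPM in cold mice 4, 11 and 15, against 11228, 9700 and 11069 CPM in ctrl mice 2, 9 and 14. All 12 brown adipocyte markers were detected. Skeletal muscle markers differed between mice: their summed level was 241.6, 1247 and 3111 CPM in cold mice 4, 11 and 15, against 84.5, 361.8 and 580.7 CPM in ctrl mice 2, 9 and 14. In whole tissue, more cells of a type and more RNA per cell cannot be told apart.

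The promoters of the 3 genes that the test across all genes called higher in cold mice are shown first, because they are where CREB is known to act. RefSeq promoter windows of GRCm38.p6, reaching from 250 bases before to 50 after the annotated start, were matched for 8 of the 10 genes (all but Crem and Sik1). The 250 upstream bases are printed 5′ to 3′ on the gene's own strand, with each short CRE motif in capitals, read as TGACG on this strand or as CGTCA where it lies on the other. The Nr4a1 stretch is chr15:101266596-101266845 on the plus strand, the Nr4a2 stretch chr2:57124004-57124253 on the minus strand and the Atf3 stretch chr1:191183334-191183583 on the minus strand.
Nr4a1: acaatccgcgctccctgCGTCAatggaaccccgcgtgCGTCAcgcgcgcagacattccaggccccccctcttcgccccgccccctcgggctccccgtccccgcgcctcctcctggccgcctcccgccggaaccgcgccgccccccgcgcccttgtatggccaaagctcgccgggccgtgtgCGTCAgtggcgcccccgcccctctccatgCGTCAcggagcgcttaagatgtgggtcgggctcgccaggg
Nr4a2: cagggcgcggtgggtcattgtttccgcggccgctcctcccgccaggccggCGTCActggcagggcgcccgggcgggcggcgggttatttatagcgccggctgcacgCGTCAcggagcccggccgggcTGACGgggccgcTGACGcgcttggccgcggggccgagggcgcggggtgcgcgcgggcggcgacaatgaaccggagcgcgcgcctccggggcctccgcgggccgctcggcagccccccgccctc
Atf3: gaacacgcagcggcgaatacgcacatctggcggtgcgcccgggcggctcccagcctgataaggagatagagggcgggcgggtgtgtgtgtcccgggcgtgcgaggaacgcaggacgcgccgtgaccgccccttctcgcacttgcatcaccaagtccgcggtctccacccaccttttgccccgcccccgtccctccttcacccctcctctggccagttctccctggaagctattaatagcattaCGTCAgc

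Nr4a1 and Nr4a2 each carried 4 short CRE motifs in these bases, and Atf3 carried 1, at -7 to -3 from its start. In Nr4a1 the motifs began at -233, -213, -69 and -40, and in Nr4a2 at -200, -144, -123 and -111. Of the 8 windows, 7 held at least 1 short motif, against 20.8% of 32851 RefSeq windows of the same 300 bases. Those windows were not matched to the 8 for base composition, and the set was picked as cAMP-induced genes. The difference in share was not tested. Nr4a3 also held 4, Fos 2, at -129 and -66, and Fosb and Junb 1 each, while the Fosl2 window held none of these letters. The full CRE palindrome TGACGTCA was in 0 of the 8 windows and in 1.79% of all windows; each palindrome also contains the short motif. The AP-1 site TGANTCA was in 0 of 8 and in 7.81% of all windows. NBRE (AAAGGTCA), the NR4A response element, was likewise in 0 of 8 and in 1.51% of all, and the CArG box, the element of serum response factor, in 0 of 8 and in 1.63% of all. TATAAA was in 3 of the 8 windows, those of Nr4a2, Fos and Junb, and in 13.6% of all. All motifs were searched on both strands within these windows alone, so a site further upstream would be missed. A match describes the letters of the window and not the occupancy of a factor. The Fosl2 window is built on a RefSeq start at 32136472, downstream of the start of Fosl2-201, the transcript with most Fosl2 reads, at 32135801. The Nr4a1 window is built on 101266846, the start of Nr4a1-201 (91 reads), while Nr4a1-202 (100 reads) starts at 101254269. The Nr4a2 window is built on 57124003, while Nr4a2-201, with most Nr4a2 reads (71), starts at 57115038. Bases before these other starts were not searched.

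**Figure D1:**
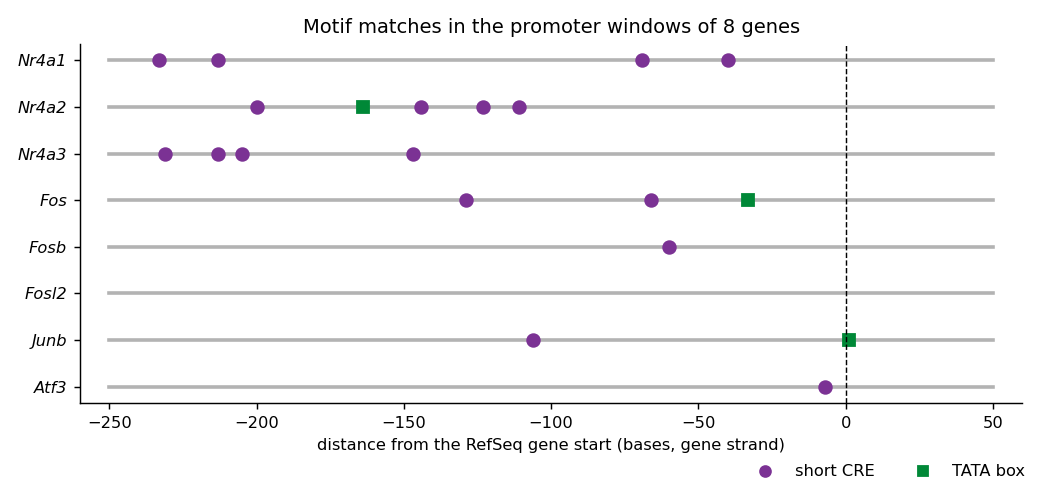
Motif matches in the 8 RefSeq promoter windows, drawn by distance in bases from the RefSeq start (horizontal axis), with 1 line for each gene; circles mark short CRE motifs and squares TATAAA. The 3 NR4A windows hold 4 short CRE motifs each, and the Fosl2 window holds none.

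Across the 10 genes, 3 were called higher in cold mice, Nr4a1, Nr4a2 and Atf3, and 0 were called lower (0 also at an unadjusted p of 0.05 and by DESeq2, which called Nr4a1 and Atf3 higher). Calls are at an adjusted p of 0.05 from edgeR's quasi-likelihood test over all genes. The filter on low counts passed 7 genes to the test, of which 4 were not called, Fosl2, Junb, Crem and Sik1. Nr4a3, Fos and Fosb were under the filter. Atf3 and Nr4a1 passed it through the cold group, where they are high. In ctrl mice 2, 9 and 14, Atf3 had 2, 3 and 2 reads and Nr4a1 had 3, 22 and 4 reads. The count of calls and the median below thus include genes selected in part by their cold levels. Over the whole series, 10% of the 8684 tested genes were called higher (869 genes) and 10% lower (870 genes); with library size as the only scaling the split was 1086 higher and 630 lower, and the same 3 genes were called. The median log2 fold change was 0.76 over the 7 tested genes and 0.0014 over all tested genes. In 3 of the 10 genes, Nr4a1, Nr4a3 and Atf3, every cold mouse lay above every ctrl mouse, and in 0 did every cold mouse lie below. Among the 8684 tested genes these shares were 17.3% and 17.8%. Nr4a3 is not among the tested genes, so only Nr4a1 and Atf3 can be set beside that share.

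**Figure D2:**
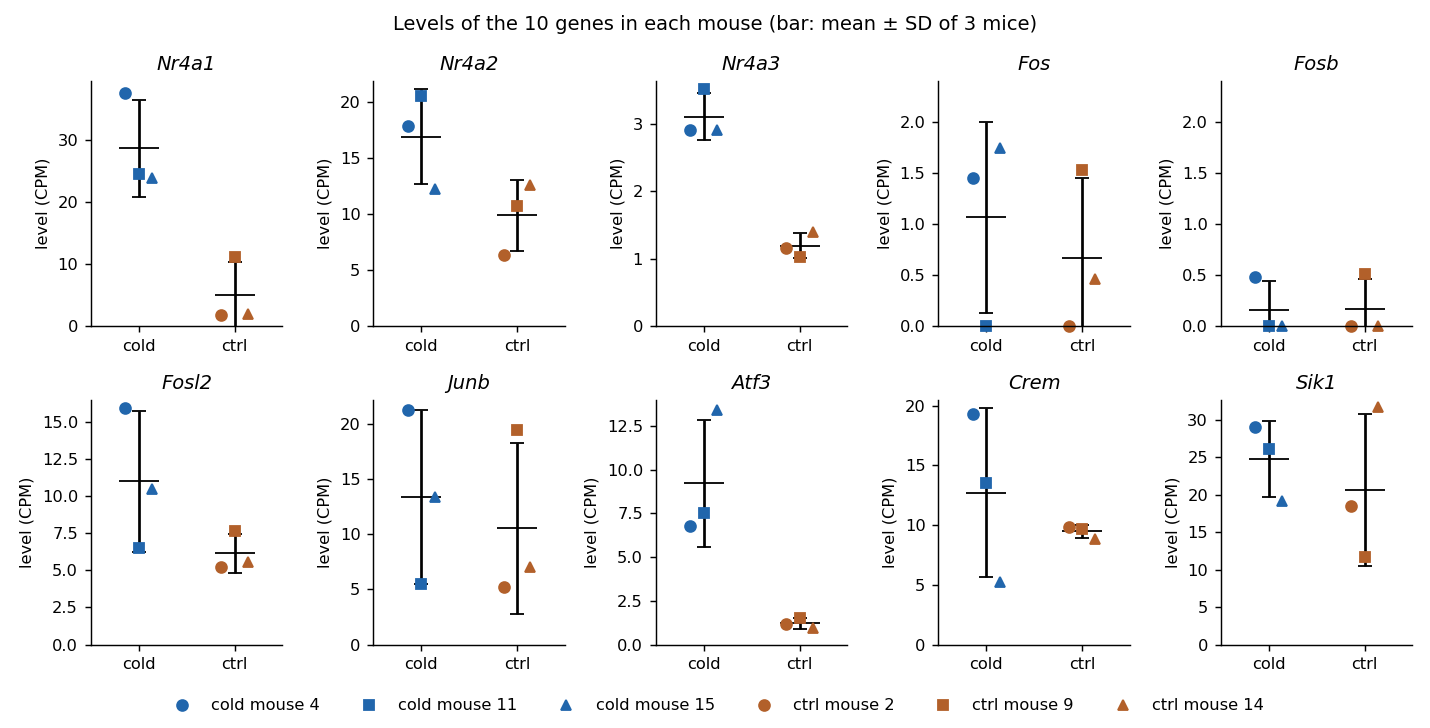
Level of each of the 10 genes in CPM (vertical axes, separate for each gene) in the 3 cold mice, left, and the 3 ctrl mice, right; points are mice, horizontal lines the group means and vertical lines the SD, which stop at the axis where they would pass below 0. Nr4a1, Nr4a3 and Atf3 show groups that do not overlap, and ctrl mouse 9 stands above the other ctrl mice for Nr4a1 and Junb.

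The NR4A genes encode orphan nuclear receptors whose activity is set mainly by how much protein is made. Nr4a1 (chromosome 15, 101254269 to 101274795, plus strand, GRCm38), which encodes NUR77, had 37.7, 24.6 and 23.9 CPM in cold mice 4, 11 and 15, against 1.74, 11.2 and 1.86 CPM in ctrl mice 2, 9 and 14. The 3 cold mice were all higher, and ctrl mouse 9 lay well above the other ctrl mice. Nr4a1 averaged 28.7 ± 7.79 CPM in cold mice and 4.94 ± 5.44 CPM in ctrl mice (SD, n = 3 each), with a log2 fold change of 2.52 (SE 0.62, 5.76-fold, adjusted p = 0.0446 by edgeR's quasi-likelihood test). These levels rest on 78, 49 and 41 reads in cold mice 4, 11 and 15, against 3, 22 and 4 reads in ctrl mice 2, 9 and 14. The call is close to the threshold and depends on the mice: it was lost, with adjusted p between 0.0678 and 0.122, on leaving out any 1 mouse other than ctrl mouse 9. Without ctrl mouse 9 the log2 fold change was 3.95 (adjusted p = 4.3e-11). On the flow cells taken alone the log2 fold change was 2.62 (adjusted p = 0.000421) and 2.29 (adjusted p = 0.00516).

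Nr4a2 (chromosome 2, 57106830 to 57124003, minus strand), which encodes NURR1, had 17.9, 20.5 and 12.2 CPM in cold mice 4, 11 and 15, against 6.37, 10.7 and 12.6 CPM in ctrl mice 2, 9 and 14. The groups overlapped, since cold mouse 15 lay between ctrl mice 9 and 14. Nr4a2 rose to 16.9 ± 4.24 CPM in cold mice, against 9.88 ± 3.18 CPM in ctrl mice (SD, n = 3 each), a log2 fold change of 0.76 (SE 0.26, 1.69-fold, adjusted p = 0.0383 by edgeR's quasi-likelihood test). The call was lost under 8 of the 15 alternatives in which Nr4a2 was tested, with DESeq2 giving an adjusted p of 0.332. Without cold mouse 4 the adjusted p was 0.118, without cold mouse 11 it was 0.183, without ctrl mouse 2 it was 0.188 and without ctrl mouse 9 it was 0.0587. With the skeletal muscle level as a covariate it was 0.118, at a log2 fold change of 0.74 that was close to the 0.76 without it.

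Nr4a3 (chromosome 4, 48045153 to 48086447, plus strand), which encodes NOR1, was sparse, with 6, 7 and 5 reads in cold mice 4, 11 and 15, against 2, 2 and 3 reads in ctrl mice 2, 9 and 14. These are 2.90, 3.51 and 2.91 CPM in cold mice 4, 11 and 15, and 1.16, 1.02 and 1.40 CPM in ctrl mice 2, 9 and 14. The groups did not overlap, at 3.11 ± 0.347 CPM in cold mice and 1.19 ± 0.19 CPM in ctrl mice (SD, n = 3 each). With 2 to 7 reads in a mouse, these SDs do not capture the counting error and cannot be weighed against the gap. The two-sided exact permutation p was 0.1, the smallest that 3 against 3 mice allows, and 0.45 after Benjamini-Hochberg adjustment over the 9 values tested this way. The ratio of the depth-scaled reads was 2.59, with a 95% counting interval of 1.03 to 7.35.

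The make-up of the NR4A reads differed in the same direction. Nr4a1 supplied 64.5%, 50.5% and 61.2% of the NR4A reads in cold mice 4, 11 and 15, against 18.8%, 48.9% and 11.8% in ctrl mice 2, 9 and 14. Every cold mouse was higher than every ctrl mouse, but ctrl mouse 9 was close to cold mouse 11. The share averaged 58.7% ± 7.29 in cold mice and 26.5% ± 19.7 in ctrl mice (SD, n = 3 each), with a two-sided exact permutation p of 0.1 (0.45 adjusted over the 9 values), again the smallest possible.

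**Figure D3:**
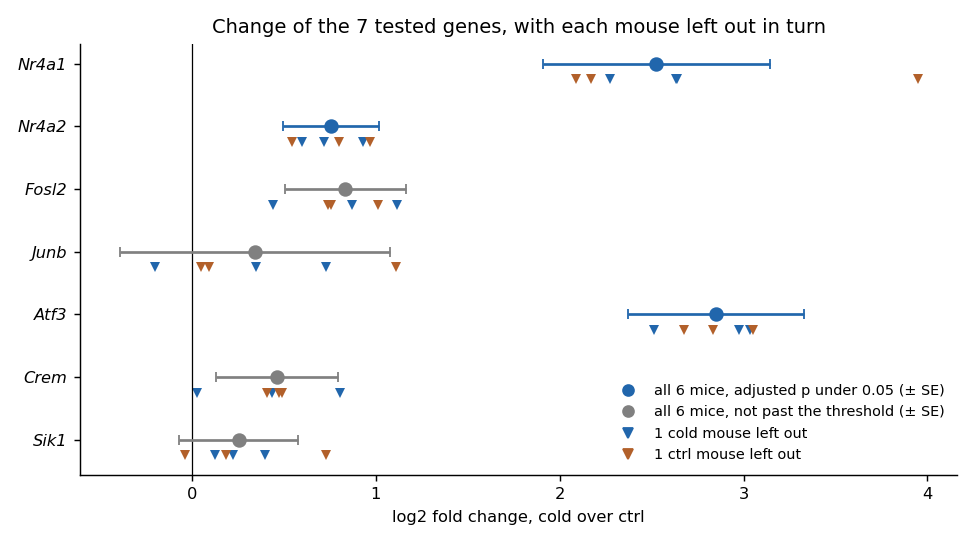
Log2 fold change of cold over ctrl mice for the 7 tested genes (horizontal axis), with circles for the estimate (blue where called, grey where not), lines for its SE, and triangles for the estimate with 1 cold mouse (blue) or 1 ctrl mouse (brown) left out. Atf3 and Nr4a1 lie furthest to the right, at 2.85 and 2.52; without ctrl mouse 9 the Nr4a1 estimate moves to 3.95, and 1 triangle each of Junb and Sik1 lies below 0.

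Fos, Fosb, Fosl2 and Junb encode leucine zipper proteins that pair to form AP-1, with a JUN protein in each AP-1 dimer that contains a FOS protein. Fos (chromosome 12), the classical immediate early gene, had 3, 0 and 3 reads in cold mice 4, 11 and 15, against 0, 3 and 1 reads in ctrl mice 2, 9 and 14. The groups overlapped at this depth, and the ratio of 1.51 has a counting interval of 0.359 to 7.29 (two-sided exact permutation p = 0.8). Fosb (chromosome 7) had 1 read in cold mouse 4 and 1 read in ctrl mouse 9, and 0 in the other mice, so a difference in either of these genes was not detectable at this depth. A Fosb count of 0 reads in a mouse allows up to 1.34 to 1.81 CPM on unscaled totals.

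Fosl2 (chromosome 5, 32135801 to 32157842, plus strand), which encodes FRA2, had 15.9, 6.51 and 10.5 CPM in cold mice 4, 11 and 15, against 5.21, 7.66 and 5.58 CPM in ctrl mice 2, 9 and 14. Cold mouse 11 lay below ctrl mouse 9, and the other cold mice lay above all ctrl mice. Fosl2 averaged 11.0 ± 4.74 CPM in cold mice and 6.15 ± 1.32 CPM in ctrl mice (SD, n = 3 each) and was not called (log2 fold change 0.83, SE 0.33, adjusted p = 0.072 by edgeR's quasi-likelihood test). Without cold mouse 4 the log2 fold change was 0.44 (adjusted p = 0.484), and without cold mouse 11 it was 1.11 and called (adjusted p = 0.0172).

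Junb (chromosome 8, 84974484 to 84978718, minus strand), which encodes a JUN protein, had 21.3, 5.51 and 13.4 CPM in cold mice 4, 11 and 15, against 5.21, 19.4 and 6.98 CPM in ctrl mice 2, 9 and 14. Both groups spanned nearly the same range, with cold mouse 4 and ctrl mouse 9 at the top. The means of 13.4 ± 7.87 CPM in cold mice and 10.5 ± 7.73 CPM in ctrl mice (SD, n = 3 each) differed by less than the spread (log2 fold change 0.34, SE 0.74, adjusted p = 0.819). Without cold mouse 4 the log2 fold change was -0.20, and without ctrl mouse 9 it was 1.11; neither was called.

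Of the other AP-1 and small MAF subunits, 7 of 12 were tested, with a median log2 fold change of -0.0083. Among them 1 was called higher and 0 lower, against 10% of all tested genes each way. Jun, the usual partner of FOS proteins, was the gene called, at 21.3, 17.0 and 21.5 CPM in cold mice 4, 11 and 15, against 13.3, 7.14 and 12.1 CPM in ctrl mice 2, 9 and 14. All cold mice lay above all ctrl mice, with a log2 fold change of 0.88 (SE 0.24, 1.84-fold, adjusted p = 0.00831 by edgeR's quasi-likelihood test). DESeq2 called 0 of these 7 genes.

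Atf3 (chromosome 1, 191170296 to 191218039, minus strand), a leucine zipper factor of the ATF family that is induced by many stresses, had the highest fold of the 7 tested genes with all 6 mice, though Nr4a1 was higher without ctrl mouse 9 (log2 3.95, against 3.05 for Atf3), without cold mouse 15 (2.64, against 2.51) and with the muscle covariate (2.76, against 2.41). It had 6.76, 7.51 and 13.4 CPM in cold mice 4, 11 and 15, against 1.16, 1.53 and 0.931 CPM in ctrl mice 2, 9 and 14. The groups did not overlap, and the lowest cold mouse was several times the highest ctrl mouse. Atf3 rose to 9.22 ± 3.63 CPM in cold mice, against 1.21 ± 0.303 CPM in ctrl mice (SD, n = 3 each), a log2 fold change of 2.85 (SE 0.48, 7.20-fold, adjusted p = 4.61e-05 by edgeR's quasi-likelihood test). The ctrl level rests on 7 reads, against 52 in cold mice, and the ratio of 7.49 had a 95% counting interval of 3.39 to 19.6. Atf3 was called in all 14 alternatives in which it was tested, with adjusted p between 3.06e-07 and 0.00345; it fell under the filter on each flow cell alone. The highest Atf3 level was in cold mouse 15, which also had the highest muscle marker level. With that marker level as a covariate the log2 fold change of Atf3 was 2.41 (adjusted p = 0.00345), and that of Nr4a1 was 2.76 (adjusted p = 0.0395).

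Crem (chromosome 18), which encodes activators and repressors of CRE promoters, had 19.3, 13.5 and 5.24 CPM in cold mice 4, 11 and 15, against 9.84, 9.70 and 8.84 CPM in ctrl mice 2, 9 and 14. The 3 cold mice lay on both sides of the ctrl mice, with cold mouse 15 the lowest of all. Crem averaged 12.7 ± 7.08 CPM in cold mice and 9.46 ± 0.539 CPM in ctrl mice (SD, n = 3 each) and was not called (log2 fold change 0.46, SE 0.33, adjusted p = 0.381). The estimate depends on single mice: without cold mouse 4 the log2 fold change was 0.029 (adjusted p = 0.973), and without cold mouse 15 it was 0.80 and called (adjusted p = 0.0361). With the muscle covariate it was 0.93 and called (adjusted p = 0.0476). On the opposite strand, Gm6225 overlaps Crem by up to 472 bases; it had 10 reads, against 108 on the Crem transcripts that overlap it, and how reads were assigned between the strands is not given in the sources used here.

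Sik1 (chromosome 17, 31844250 to 31855804, minus strand), the salt-inducible kinase that CREB itself induces, had 29.0, 26.1 and 19.2 CPM in cold mice 4, 11 and 15, against 18.5, 11.7 and 31.6 CPM in ctrl mice 2, 9 and 14. The groups overlapped throughout, and ctrl mouse 14 was the highest of the 6. The means were 24.8 ± 5.01 CPM in cold mice and 20.6 ± 10.1 CPM in ctrl mice (SD, n = 3 each; log2 fold change 0.25, SE 0.32, adjusted p = 0.668). Leaving out ctrl mouse 9 gave a log2 fold change of -0.039, and leaving out ctrl mouse 14 gave 0.73.

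The genes did not all share an order of mice within the groups: Atf3 was highest in cold mouse 15, where Crem and Sik1 were lowest among cold mice. Fosl2 and Junb did share one, falling from cold mouse 4 to 15 to 11 and from ctrl mouse 9 to 14 to 2. Cold mouse 4 was the highest cold mouse for 5 of the 7 tested genes, against 33.0% of all tested genes, and ctrl mouse 9 the highest ctrl mouse for 4 of the 7, against 34.1%. Summed over the 10 genes, the level was 152.7, 107.7 and 102.5 CPM in cold mice 4, 11 and 15, against 49.2, 75.0 and 70.3 CPM in ctrl mice 2, 9 and 14. Neutrophil markers stood at 15.5, 2.50 and 1.75 CPM in cold mice 4, 11 and 15, against 2.31, 2.04 and 2.33 CPM in ctrl mice 2, 9 and 14; 4 of the 7 marker genes had a read. Their part in the values of cold mouse 4 was not tested. Macrophage and monocyte markers summed to 102.4 to 135.1 CPM in cold mice and 65.6 to 101.8 CPM in ctrl mice, with 0 of 5 tested markers called by edgeR or DESeq2 and 1 at an unadjusted p of 0.05.

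Reads were also counted per annotated transcript. How reads that cover only bases shared between transcripts were assigned is not given in the sources used here, which limits each transcript count and start share below. Of these genes, 6 transcripts passed the filter. Of the 6, 3 were called higher and 0 lower, against 8.68% higher and 8.22% lower among the 11699 tested transcripts. The 3 that were called passed the filter through their reads in the cold mice. Nr4a1-201, which starts at 101266846, had 39, 22 and 19 reads in cold mice 4, 11 and 15, against 2, 7 and 2 reads in ctrl mice 2, 9 and 14 (log2 fold change 2.82, SE 0.41, adjusted p = 1.71e-06 by edgeR's quasi-likelihood test). Nr4a1-202, which starts upstream at 101254269, had 37, 26 and 22 reads in cold mice 4, 11 and 15, against 1, 12 and 2 reads in ctrl mice 2, 9 and 14 (log2 fold change 2.47, SE 0.45, adjusted p = 0.000421). These transcripts have the same coding bases and share 2351 bases, with 126 bases only in Nr4a1-201 and 202 only in Nr4a1-202, all before the coding sequence. As assigned, reads were nearly even between them in cold mice. Nr4a1-202 took 52.2% ± 3.03 of their reads in cold mice and 48.8% ± 14.9 in ctrl mice (SD, n = 3 each, two-sided exact permutation p = 0.8). Whether this split follows the use of the 2 starts was not tested. Nr4a1 was also the only gene of the set with enough reads for a test of transcript usage, and it was not called (adjusted p = 0.9999); 0.195% of 2568 testable genes were.

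Atf3 also has transcripts from separate starts with the same coding bases. Atf3-201, which starts at 191183340 just inside the promoter printed above, had 10, 10 and 9 reads in cold mice 4, 11 and 15, against 2, 2 and 2 reads in ctrl mice 2, 9 and 14. Atf3-203, which starts upstream at 191218039, had 4, 5 and 14 reads in cold mice 4, 11 and 15, against 0, 1 and 0 reads in ctrl mice 2, 9 and 14. Cold mouse 15 stood apart in that it alone had most Atf3 reads on Atf3-203. The Atf3-203 share was 28.6%, 33.3% and 60.9% in cold mice 4, 11 and 15 (23 of 52 reads in all), against 0%, 33.3% and 0% in ctrl mice 2, 9 and 14 (1 of 7 reads). The exact 95% intervals, from Clopper-Pearson, reach from 38.5% to 80.3% in cold mouse 15 and from 0% to 84.2% in ctrl mice 2 and 14 (two-sided exact permutation p = 0.3), so a difference in share was not detectable at this depth.

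Nr4a2 reads fell on 3 main transcripts. Nr4a2-201, whose start lies inside the gene at 57115038, had 12, 25 and 12 reads in cold mice 4, 11 and 15, against 5, 7 and 10 reads in ctrl mice 2, 9 and 14. It was called higher (log2 fold change 1.15, SE 0.38, adjusted p = 0.0288), with groups that did not overlap, but lost the call in 4 of 8 alternatives, among them leaving out cold mouse 11 (adjusted p = 0.345). Nr4a2-203, which starts at 57124003 where the printed promoter ends, had 14, 10 and 3 reads in cold mice 4, 11 and 15, against 3, 8 and 7 reads in ctrl mice 2, 9 and 14. Nr4a2-206, annotated as a target of nonsense-mediated decay from that same start, had 8, 3 and 3 reads in cold mice and 2, 3 and 6 reads in ctrl mice. Nr4a2-201 took 55.9% ± 17.9 of the reads of these 3 in cold mice and 44.1% ± 5.58 in ctrl mice (SD, n = 3 each; two-sided exact permutation p = 0.4), a difference within the spread.

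The Crem locus has 39 annotated transcripts, 20 with a read. Crem contains an internal promoter, from which the short repressor ICER is made and which cyclic AMP is known to drive. The 7 transcripts whose starts lie within 1000 bases of the first internal start had 4, 2 and 1 reads in cold mice 4, 11 and 15, against 1, 3 and 1 reads in ctrl mice 2, 9 and 14. As a share of Crem reads this was 9.51% ± 1.9 in cold mice and 8.98% ± 5.91 in ctrl mice (SD, n = 3 each; two-sided exact permutation p = 0.9), and nearly all Crem reads came from the 32 transcripts that start upstream. Crem-203 had the most reads, 8, 9 and 2 in cold mice 4, 11 and 15, against 2, 5 and 5 in ctrl mice 2, 9 and 14. The other Crem transcripts with at least 10 reads, Crem-201, Crem-227, Crem-233 and Crem-239, had 12 to 17 reads each over the 6 mice, and they share the upstream start region.

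Sik1-201, the coding transcript, had 47, 45 and 30 reads in cold mice 4, 11 and 15, against 29, 20 and 64 reads in ctrl mice 2, 9 and 14, and was not called (adjusted p = 0.854). Sik1-203, annotated as a retained intron, had 13, 6 and 1 reads in cold mice 4, 11 and 15, against 3, 3 and 3 reads in ctrl mice 2, 9 and 14. Its share of Sik1 reads was 12.1% ± 9.33 in cold mice and 8.94% ± 4.33 in ctrl mice (SD, n = 3 each; two-sided exact permutation p = 0.7). Nr4a3-201 had 3, 4 and 4 reads in cold mice 4, 11 and 15, against 0, 2 and 1 reads in ctrl mice 2, 9 and 14. Nr4a3-203 had 3, 2 and 1 reads in cold mice 4, 11 and 15, against 2, 0 and 2 reads in ctrl mice 2, 9 and 14. Fos-201 carried all 10 Fos reads, Junb-201 carried 139 of 140 Junb reads (adjusted p = 0.82) and Fosl2-201 carried 97 of 100 Fosl2 reads (adjusted p = 0.0845), so the gene and transcript values of these 3 genes rest on nearly the same reads.

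**Figure D4:**
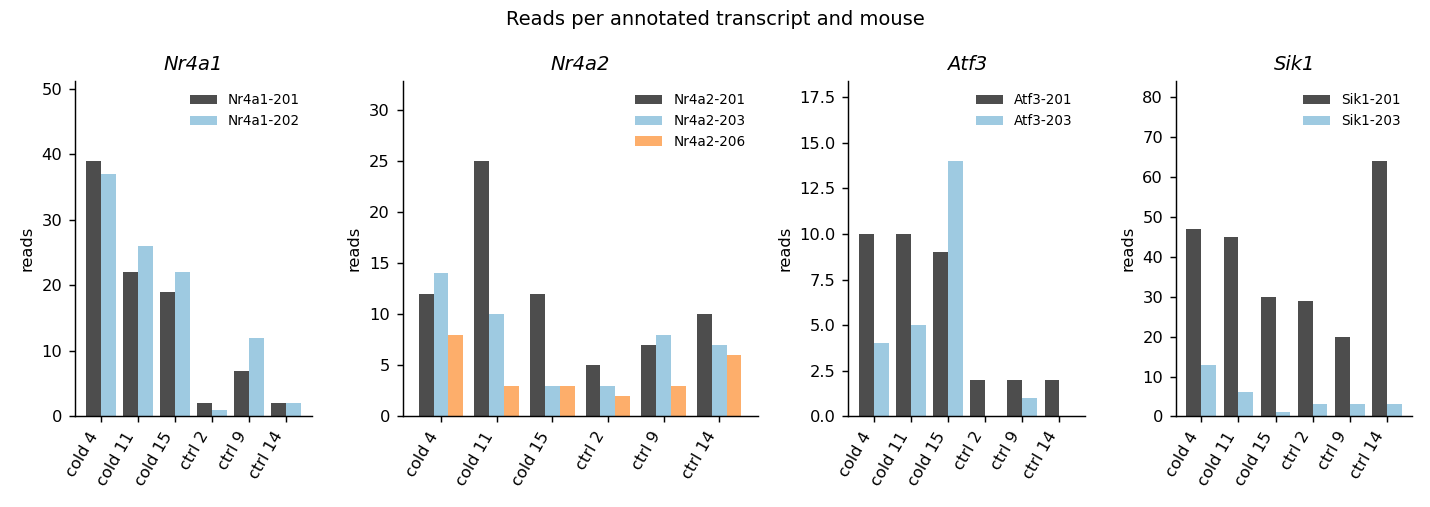
Reads per mouse (vertical axes) of the transcripts of Nr4a1, Nr4a2, Atf3 and Sik1 with at least 10 reads, with the 3 cold mice left and the 3 ctrl mice right; each bar is 1 transcript in 1 mouse, not scaled for depth. Both Nr4a1 transcripts are higher in all cold mice, and Atf3-203 is highest in cold mouse 15.

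Other genes of the pathway were read from lists of their roles. These lists were also chosen with earlier results of these data known, so their shares of called genes are descriptions and not tests. Of the CREB factors, coactivators and the SIK and class IIa HDAC arm, 11 of 14 genes were tested, with a median log2 fold change of -0.12. By edgeR's quasi-likelihood test 0 were called, against 10% of all tested genes each way, and by DESeq2 also 0. At an unadjusted p of 0.05, 1 was higher and 1 lower. Creb1, which encodes CREB itself, had 15.0, 13.0 and 14.0 CPM in cold mice 4, 11 and 15, against 11.0, 9.19 and 11.2 CPM in ctrl mice 2, 9 and 14 (log2 fold change 0.42, adjusted p = 0.248). Hdac7 had 21.7, 20.5 and 15.1 CPM in cold mice 4, 11 and 15, against 16.8, 14.8 and 13.5 CPM in ctrl mice 2, 9 and 14 (log2 fold change 0.37, adjusted p = 0.263).

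Of the cAMP and CREB target genes of brown fat, 14 of 16 were tested, with a median log2 fold change of 0.88. Of these, 10 were called higher and 0 lower, where 10% of all tested genes were called higher. The list was chosen with earlier results of these data known, so this share describes the list and is no test of the pathway. Ppargc1a, the coactivator of mitochondrial biogenesis, had 126.6, 126.2 and 136.8 CPM in cold mice 4, 11 and 15, against 21.4, 26.0 and 29.3 CPM in ctrl mice 2, 9 and 14 (5.03-fold, adjusted p = 1.19e-14). Dio2, which makes active thyroid hormone, averaged 173.8 ± 15.1 CPM in cold mice and 34.5 ± 9.73 CPM in ctrl mice (SD, n = 3 each; 4.99-fold, adjusted p = 1.97e-10). The groups lay far apart in both genes. Elovl3, a fatty acid elongase, rose 5.83-fold (adjusted p = 0.000803 by edgeR's quasi-likelihood test). Adcy3, the gene of an adenylyl cyclase, rose 7.10-fold in reads summed over its transcripts (adjusted p = 0.000193 by the same test). Its transcripts were not read singly here, so the value is a change in the gene's RNA and not in the enzyme. Bmp8b, a secreted factor of brown fat, had 7.25, 9.52 and 14.6 CPM in cold mice 4, 11 and 15, against 0, 0 and 0.465 CPM in ctrl mice 2, 9 and 14 (adjusted p = 4.25e-07). Bmp8b passed the filter through the cold mice alone, and its ctrl level rests on 1 read, in ctrl mouse 14. Of these targets, Ppargc1a, Dio2 and Elovl3 are also among the brown adipocyte markers.

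Of the other immediate early and early response genes, 32 of 46 were tested, with a median log2 fold change of 0.30. Of these, 7 were called higher and 1 lower, against 10% of all tested genes each way. Rgs2, a brake on G protein signalling, had 84.5, 68.1 and 49.5 CPM in cold mice 4, 11 and 15, against 26.0, 31.6 and 25.6 CPM in ctrl mice 2, 9 and 14 (2.44-fold, adjusted p = 1.01e-05). Dusp6, a phosphatase of the ERK kinases, averaged 73.2 ± 8.23 CPM in cold mice and 33.5 ± 1.63 CPM in ctrl mice (SD, n = 3 each; 2.19-fold, adjusted p = 9.91e-08). Both genes thus had groups apart by more than their spread. Irs2, an insulin receptor substrate that CREB can induce, rose 3.76-fold (adjusted p = 0.0107), Gadd45g, a stress response gene, 1.80-fold (adjusted p = 3.42e-06) and Trib1, a pseudokinase, 1.64-fold (adjusted p = 0.00275). Irs2 passed the filter through the cold mice, with 4.05, 2.55 and 7.44 CPM in ctrl mice 2, 9 and 14. Rgs2 and Gadd45g are on the list of cAMP targets too. The gene called lower, Pim1, a kinase named here after its values were seen, had 308.2, 300.1 and 249.8 CPM in cold mice 4, 11 and 15, against 348.9, 461.3 and 472.7 CPM in ctrl mice 2, 9 and 14 (log2 fold change -0.58, adjusted p = 0.00192).

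**Figure D5:**
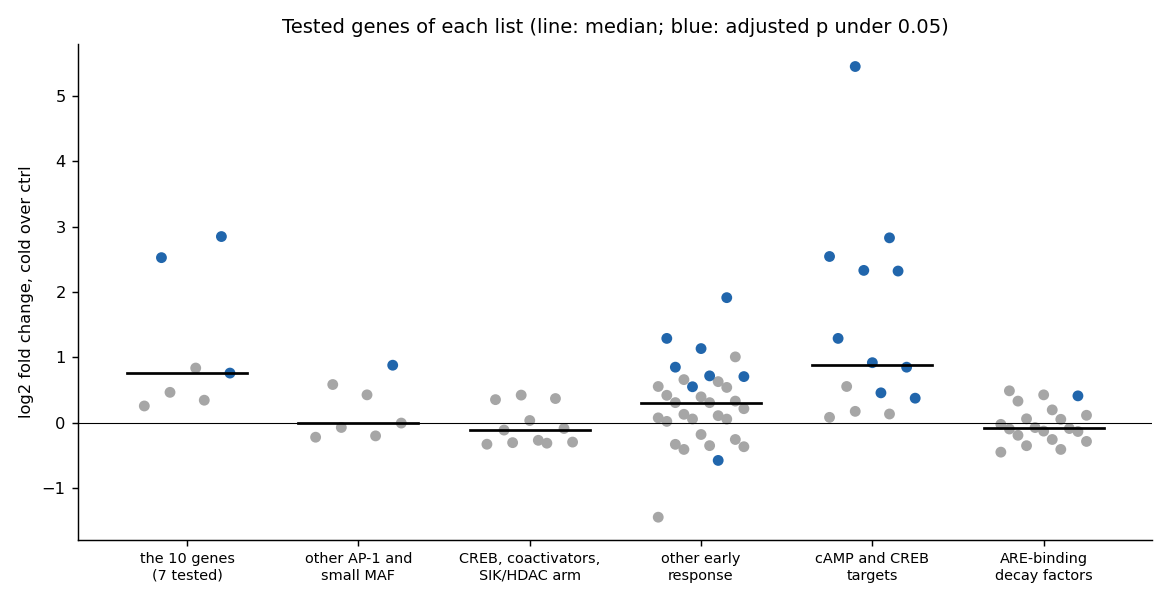
Log2 fold changes of cold over ctrl mice for the tested genes of the set and of the 5 pathway lists (vertical axis), with blue points for called genes, grey points for the others and a line at each median. The medians are 0.76 for the 10-gene set and 0.88 for the cAMP and CREB targets, against -0.12 for the CREB, coactivator and SIK list. The set and lists were chosen with earlier results of these data known.

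The mRNAs of such genes are known for AU-rich 3′ ends that speed decay. All 10 had at least 1 ATTTA in the 3′ untranslated region of their most read coding transcript, against 68.7% of 8317 tested genes with a 3′ region. Counted per 1000 bases, the median was 2.39 over the 10 genes and 1.34 over the tested genes, with median lengths of 1478 and 1089 bases. Crem had the highest density, at 6.14 per 1000 bases, and Fosb the lowest, at 0.47. The longer element ATTTATTTA was in 2 of the 10, Fos and Crem, and in 6.23% of the tested genes. All 20 factors listed as binding such elements or taking part in the removal of poly(A) tails were tested, with a median log2 fold change of -0.085. Btg1, Btg2 and Tob1 are also on the list of early response genes. Of the 20, 1 gene was called higher and 0 lower, against 10% of all tested genes each way. That gene, Elavl1, encodes HuR, an RNA-binding protein known to stabilise AU-rich mRNAs, and had 54.6, 53.6 and 68.7 CPM in cold mice 4, 11 and 15, against 43.4, 47.5 and 41.9 CPM in ctrl mice 2, 9 and 14 (1.33-fold, adjusted p = 0.0272 by edgeR's quasi-likelihood test); DESeq2 called 0 of the 20.

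Genes with a pattern like that of each well-measured gene over the 6 mice were found by Pearson's correlation of log2 CPM among tested genes of at least 30 CPM, as a description with no test, since the highest of very many correlations over 6 mice is high by selection. Nr4a1 was most like Kif5b (r = 0.997), Ndufaf4 (0.99) and Uba1 (0.986). Nr4a2 was most like Dusp3 (0.995), Prdx1 (0.977) and Cnbp (0.971). Junb was most like Chchd3 (0.99), Pnrc2 (0.973) and Apba3 (0.968). Crem was most like H2-Eb1 (0.981), Arl1 (0.978) and Miga2 (0.974). Sik1 was most like Acadvl (0.972), Slc6a6 (0.97) and Chrac1 (0.967).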

How the data were processed

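Each mouse had 2 deposited tables, 1 for each flow cell, of raw read counts per annotated transcript. Per the submitters' processing notes, reads were aligned with minimap2 to GRCm38; its version and settings, the annotation release, and treatment of multiply aligned reads and of strand were not given in the sources used here. The labels' extraction text names a different fat depot, while all tissue fields name interscapular brown fat. The counts, as deposited by the authors, were summed over both flow cells and, by GENCODE M21, over the transcripts of a gene; 172 transcripts with 9857 of 11789059 reads (0.0836%) were not in that annotation and were left out.

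Genes with enough reads (edgeR's filterByExpr, count minimum 10 in 3 mice) were tested with edgeR 4.0.16 in R 4.3.3: TMM normalization, robust quasi-likelihood F-test, cold against ctrl, Benjamini-Hochberg adjustment over all tested genes, threshold 0.05. Transcripts were tested likewise, and transcript usage within genes by edgeR's exon-level test, adjusted over genes. Levels are CPM, not on a log scale, over the reads of the tested genes with library sizes scaled by the TMM factors (0.956 to 1.051). The CPM given for 3 reads used unscaled matched reads. Genes under the filter and read shares were compared by two-sided exact permutation over mice (scipy 1.17.1). Ratio and share intervals are exact 95% intervals that cover counting error only, as does the limit of 3 reads for a count of 0. DESeq2 1.42.0, other normalizations and filters, a muscle marker covariate, each flow cell alone and each mouse left out served as alternatives. The procedure was tested on simulated data. The genes, transcripts with at least 10 reads, up to 5 called genes (or the 2 largest where none was called) of each list and the 3 most like genes were named by rule; the set and lists were chosen with earlier results of these data known. Mouse numbers name separate animals.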

Additional observations from a re-analysis of the deposited data

How the results depend on the processing

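Atf3 was called in all 14 alternatives that tested it, Nr4a1 in 10 of 16, Nr4a2 in 7 of 15, and Nr4a1-201 (10) and Nr4a1-202 (9) in all of theirs. Requiring 1 CPM in 3 mice ended the Nr4a1 call (adjusted p = 0.067), and fitting without robust estimation (0.0687) or on flow cell 1 alone (0.0758) ended that of Nr4a2. Junb ranged from -0.20 to 1.11 on leaving out a mouse, Junb-201 from -0.19 to 1.10, Sik1 from -0.039 to 0.73 and Sik1-201 from -0.19 to 0.64 (log2), each below 0 in 1 case. The internal-start share of Crem, 0.53 points higher in cold mice, ranged from -1.33 to 3.94 points without a mouse and was -4.17 on flow cell 2. Genes of the set called numbered 1 on flow cell 1, 1 on flow cell 2 and 1 to 3 without a mouse (Atf3 alone without cold mouse 4 or ctrl mouse 2), and transcripts called 1 on flow cell 2. Over all genes, 457 were called higher and 432 lower on flow cell 2, 467 and 353 with DESeq2, and 574 lower with the muscle covariate; the cause was not tested, but flow cell 2 alone tests fewer genes. The short CRE motif was in 7 promoter windows, against 0 for the palindrome. No paired analysis was possible because the mouse numbers differ between the groups. Depth limits Fos, Fosb, Nr4a3 and most transcripts.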

Other observations

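Ctrl mouse 9 also had the highest level of other early response genes outside the 10-gene set; these 3 were chosen after their values were seen. Egr1, a zinc finger immediate early gene, had 5.31, 1.00 and 6.40 CPM in cold mice 4, 11 and 15, against 1.16, 31.6 and 1.40 CPM in ctrl mice 2, 9 and 14. Dusp1, a phosphatase of MAP kinases, had 53.6, 46.1 and 44.8 CPM in cold mice 4, 11 and 15, against 26.0, 66.9 and 31.6 CPM in ctrl mice 2, 9 and 14. Btg2, an antiproliferative early gene, had 6.76, 5.51 and 5.82 CPM in cold mice 4, 11 and 15, against 3.47, 9.70 and 1.40 CPM in ctrl mice 2, 9 and 14. In each of these genes ctrl mouse 9 was the highest of the 6 mice, and none was called between the groups (adjusted p = 0.632 for Egr1, 0.792 for Dusp1 and 0.697 for Btg2). Ctrl mouse 9 was the highest ctrl mouse for 15 of the 32 tested early response genes (46.9%), against 34.1% of all tested genes; cold mouse 4 was the highest cold mouse for 16 of the 32 (50%), against 33.0% of all tested genes. Conditions of tissue collection by mouse were not analysed here, and their part in these values was not tested.

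Single markers of other cell types moved between the groups. Of 9 tested fibroblast and preadipocyte markers, edgeR called 1 higher and 3 lower. It called 2 of 3 white adipocyte markers higher and 1 of 9 pericyte and smooth muscle markers lower. Of the tested macrophage, Schwann cell, skeletal muscle and erythroid markers it called 0. The 10 tested skeletal muscle markers nevertheless had a median log2 fold change of 2.18, with the wide spread between mice given above. Kit, a receptor of mast cells and other cells, fell to 1.93, 0 and 0.582 CPM in cold mice 4, 11 and 15, against 5.79, 13.3 and 8.38 CPM in ctrl mice 2, 9 and 14 (log2 fold change -3.32, adjusted p = 7.84e-05 by edgeR's quasi-likelihood test). Kit passed the filter through the ctrl mice alone, where it is high. It was the only tested gene of the mast cell list. Of the others, Cma1, Cpa3, Mcpt4 and Tpsb2 were at 0 to 2.00 CPM in cold mice and 0 to 3.06 CPM in ctrl mice, and Tpsb2 had reads in cold mice alone. Kdr, the VEGF receptor of endothelium, rose 1.54-fold (adjusted p = 0.000158) and Eng, an endothelial co-receptor, 1.52-fold (adjusted p = 0.00016). Of 11 tested endothelial markers, 2 were called higher and 0 lower by edgeR and by DESeq2, where edgeR called 10% of all tested genes each way. At an unadjusted p of 0.05, 3 endothelial markers were higher and 1 lower. Tek, the angiopoietin receptor, named after its values were seen, had 9.66, 9.02 and 11.1 CPM in cold mice 4, 11 and 15, against 17.4, 14.8 and 14.9 CPM in ctrl mice 2, 9 and 14 (log2 fold change -0.66, adjusted p = 0.0508).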
